A study of Rattus norvegicus with 7 samples.

Results

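Cholesterol synthesis was followed here through 8 genes, chosen by symbol: Hmgcs1, Idi1, Fdps, Fdft1, Sqle, Lss and Cyp51, which encode enzymes of the pathway, and Insig1, which encodes a sensor that holds the pathway back. All 8 were present on 1 line each of the 20660 genes in the count table, and all 8 passed the filter on low counts. The tissue was synovium, the soft lining of the joint, from male SD rats aged 3 months and kept under specific-pathogen-free conditions. In 4 rats, numbered 1 to 4 and called the knee osteoarthritis (KOA) group by the labels, the right knee had received 0.1 mL of MIA at 10 mg per kg under pentobarbital. MIA is given in the labels as an abbreviation alone; it is commonly short for monosodium iodoacetate, a blocker of glycolysis used to model osteoarthritis. The 3 controls, numbered 2 to 4 (NC in the labels), had no treatment, so the injection itself and the agent cannot be told apart. RNA was taken 4 weeks after treatment, with 1 library per rat.

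Cells build cholesterol from acetyl-CoA by way of mevalonate, isoprenoid pyrophosphates, squalene and lanosterol. Hmgcs1 acts at the start of this route, Idi1 and Fdps make the isoprenoid units, Fdft1 joins farnesyl pyrophosphate into squalene, Sqle and Lss turn squalene into lanosterol, and Cyp51 begins the conversion of lanosterol to cholesterol. The genes of the route are textbook targets of the SREBP transcription factors. When sterols are plentiful, Insig1 keeps the SREBP precursor and its escort protein Scap in the endoplasmic reticulum. Farnesyl pyrophosphate, the product of Fdps, is the branch point from which ubiquinone, dolichol and protein prenyl groups are also made.

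The libraries held 13870822 to 16261089 counts, and a single one of the 8 genes had 43 to 1384 counts in a library. Transcripts of other tissues differed between the groups. The 10 measured skeletal muscle markers summed to 125998 to 156739 CPM (counts scaled to library size with TMM) in controls and to 299 to 31345 CPM in MIA libraries, lowest in MIA 2; all 10 were lower in every MIA library than in every control, and 1 of the 10 passed the test described below (7 at an unadjusted p under 0.05, and 6 with DESeq2). The 7 fibroblast markers summed to 1981 to 4623 CPM in controls and 34286 to 71191 CPM in MIA libraries, and all 7 rose. Of the macrophage markers, 6 of 7 rose (179 to 245 against 415 to 1034 CPM), and of the markers of dividing cells 7 of 7 rose (6.88 to 10.6 against 87.8 to 286 CPM). Of the adipocyte markers, 1 of 9 fell by edgeR (1136 to 2122 against 517 to 1438 CPM), 2 at an unadjusted p under 0.05 and 4 with DESeq2. The log2 change was negative for 8 of these 9. Of the chondrocyte markers, 4 of 7 rose (367 to 503 against 246 to 3719 CPM). Of the 5 measured blood genes (5363 to 13726 against 2493 to 23977 CPM), the 7 Schwann cell markers (176 to 284 against 133 to 402 CPM) and the 4 measured endothelial markers (466 to 739 against 585 to 1110 CPM), edgeR called 0; at an unadjusted p under 0.05 the Schwann list had 4 genes, of which 1 was higher, and the others 0, and DESeq2 called 3 Schwann genes and 0 of the others. Of the keratinocyte list (3.22 to 4.49 against 4.22 to 13.6 CPM), the markers Krt5, Krt14 and Krt15 were at 0 in all controls, and 1 of the 2 tested rose. The defining transcript of the synovial lining, Prg4, was present in all libraries, at 1496 to 3654 CPM in controls and 185 to 4842 CPM in MIA libraries; 1 of the 5 lining markers rose and 1 fell (summed, 1995 to 4624 against 1094 to 6432 CPM). The part that this difference in tissue makeup has in the changes below was not tested, beyond the fits with a muscle or adipocyte level as a covariate.

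Transcripts of 5 enzymes rose in the MIA synovium: Idi1 4.03-fold, Sqle 3.33-fold, Cyp51 2.53-fold, Lss 2.28-fold and Hmgcs1 1.42-fold. Transcripts of Fdft1, squalene synthase, fell to a level 3.35-fold lower than in controls. Fdps and Insig1 did not pass the test. In synovium measured in bulk, fewer cells of a type and less RNA per cell cannot be told apart. By edgeR's quasi-likelihood test with Benjamini-Hochberg adjustment over 14054 genes, called at an adjusted p under 0.05, 5 of the 8 genes were higher in MIA, which is 62.5% beside 21.3% of all genes tested. Of the 8, 1 was lower, which is 12.5% beside 19.6% of all genes. The 8 were chosen with earlier results of these data known, so these shares are a description only. In 5 of the 8 every MIA library was above every control, a pattern seen in 24.8% of all genes, and in 1 every MIA library was below every control, as in 24.4% of all genes. The median log2 change was 0.85 over the 8 genes and 0.07 over all genes tested. Summed over the 8 genes, the level was 242 to 288 CPM in controls and 245 to 313 CPM in MIA libraries, and these ranges overlap.

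**Figure D1:**
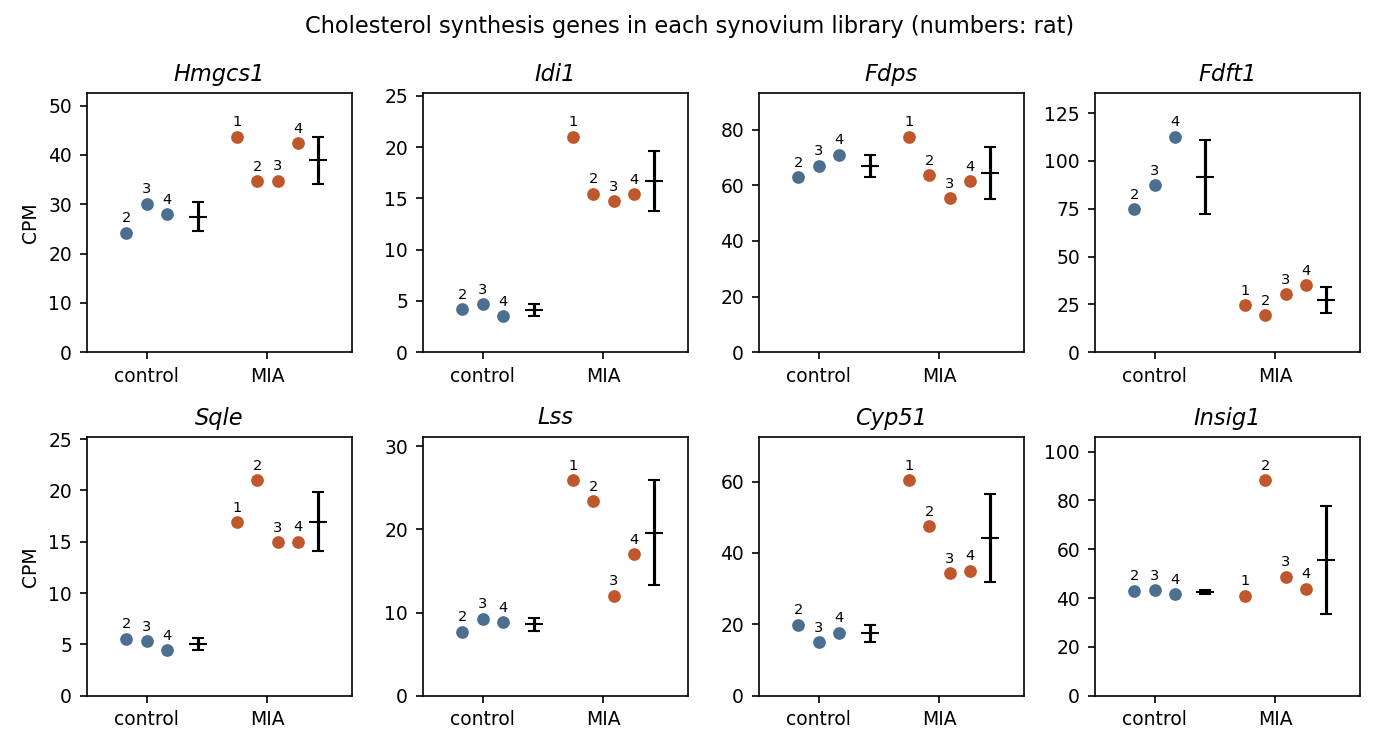
CPM (TMM-scaled, linear axes from 0) of the 8 genes in each of the 3 control and 4 MIA libraries; numbered points are rats, and bars give the group mean ± SD. Idi1, Sqle, Lss, Cyp51 and Hmgcs1 lie higher in every MIA library, Fdft1 lies lower in every MIA library (19.3 to 35.0 against 74.8 to 113 CPM), and Fdps and Insig1 overlap.

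Promoter sequence is shown for 3 of the genes, chosen because they differ in both response and motif content: Idi1, which rose most, Cyp51, which also rose, and Fdps, which did not change by the test. The sequences run 5′ to 3′ on the gene's strand, from 250 bases before to 50 bases after the start given by RefSeq on build GRCr8, which is not the build of the counts. Capitals mark CCAAT boxes (CCAAT, or ATTGG on the other strand) and GC boxes (GGGCGG, or CCGCCC on the other strand), elements bound by NF-Y and Sp1, which act beside SREBP at promoters of this pathway. The Idi1 window lies at chr17:66547475-66547774 on the minus strand, the Fdps window at chr2:176804767-176805066 on the minus strand and the Cyp51 window at chr4:30991443-30991742 on the plus strand.
Idi1: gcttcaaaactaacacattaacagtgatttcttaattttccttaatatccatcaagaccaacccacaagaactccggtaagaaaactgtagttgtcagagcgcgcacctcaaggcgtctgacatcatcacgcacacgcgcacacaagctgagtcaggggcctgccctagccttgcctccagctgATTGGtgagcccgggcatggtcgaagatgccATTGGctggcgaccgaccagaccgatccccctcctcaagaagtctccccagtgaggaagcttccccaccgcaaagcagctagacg
Fdps: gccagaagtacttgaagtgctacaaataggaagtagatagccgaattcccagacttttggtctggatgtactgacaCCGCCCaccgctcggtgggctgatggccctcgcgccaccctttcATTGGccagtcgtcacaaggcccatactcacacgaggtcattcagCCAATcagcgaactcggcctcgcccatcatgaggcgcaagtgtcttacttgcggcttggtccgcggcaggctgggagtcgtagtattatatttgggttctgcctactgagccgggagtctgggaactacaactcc
Cyp51: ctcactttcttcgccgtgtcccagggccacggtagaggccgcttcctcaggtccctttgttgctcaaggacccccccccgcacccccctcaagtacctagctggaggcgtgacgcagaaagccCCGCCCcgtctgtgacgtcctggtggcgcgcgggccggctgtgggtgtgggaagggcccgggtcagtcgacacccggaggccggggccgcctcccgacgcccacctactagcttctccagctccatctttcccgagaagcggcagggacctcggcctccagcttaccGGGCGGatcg
RefSeq's promoter table matched 6 of the 8 genes, all but Sqle and Fdft1. Both strands were searched, and although CCGCCC and CCAAT can share letters, no matches overlapped in these 6 windows. A CCAAT box was found in 5 of the 6 windows, beside 37.5% of 33469 rat promoters of the same length, and a GC box in 5 of the 6, beside 33.1%. Idi1 and Fdps each held 2 CCAAT boxes, but Idi1 held no GC box and Fdps held 1. Cyp51 held 2 GC boxes and no CCAAT box. Hmgcs1, with the smallest rise of those called, held 2 CCAAT boxes and 4 GC boxes, and Lss held 1 and 2. Insig1 held 1 of each. The core of the sterol regulatory element, searched as TCACNCCAC, was in none of the 6 windows and in 1.12% of all promoters; with N and fixed letters this search misses variants of the element. These matches describe letters in a window and set no order among the responses: genes that rose and both genes that were not called, Fdps and Insig1, hold the boxes.

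Hmgcs1 (ENSRNOG00000016552), the synthase that makes HMG-CoA, was at 24.3, 30.1 and 28.0 CPM in controls 2 to 4 and at 43.7, 34.7, 34.8 and 42.4 CPM in MIA 1 to 4. All MIA libraries were above all controls, but the nearest libraries were close. Its level was 27.5 ± 2.97 CPM (SD, n = 3) in controls and 38.9 ± 4.84 CPM (SD, n = 4) in MIA libraries. The log2 change was 0.50 ± 0.16 (SE; 95% interval 0.13 to 0.87; edgeR adjusted p = 0.0373). The call was lost when control 2, 3 or 4, MIA 1 or MIA 4 was left out (log2 changes 0.41, 0.57, 0.51, 0.45 and 0.46).

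Idi1 (ENSRNOG00000016690), the isomerase that makes dimethylallyl pyrophosphate, was at 4.21, 4.67 and 3.52 CPM in controls 2 to 4 and at 21.0, 15.4, 14.7 and 15.4 CPM in MIA 1 to 4. Its groups stood well apart, with MIA 1 above the other 3 MIA libraries. The mean was 4.13 ± 0.576 CPM (SD, n = 3) in controls and 16.7 ± 2.93 CPM (SD, n = 4) in MIA libraries. The log2 change of 2.01 ± 0.23 (SE; 95% interval 1.49 to 2.53; edgeR adjusted p = 0.00105) was the largest rise of the 8. In RefSeq's GRCr8 annotation Idi1 overlaps the protein-coding gene Wdr37 and has 1 pseudogene entry, and no strand setting of the counts is known, so reads of these genes cannot be told apart with certainty. Wdr37 itself went the other way, with a log2 change of -0.74 ± 0.22 (SE; edgeR adjusted p = 0.0292).

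Fdps (ENSRNOG00000043377), farnesyl pyrophosphate synthase, was at 62.8, 67.0 and 71.0 CPM in controls 2 to 4 and at 77.5, 63.5, 55.2 and 61.4 CPM in MIA 1 to 4. MIA 1 was the highest library and MIA 3 the lowest, with the controls between them. The mean was 66.9 ± 4.10 CPM (SD, n = 3) in controls and 64.4 ± 9.40 CPM (SD, n = 4) in MIA libraries. The log2 change was -0.06 ± 0.16 (SE; 95% interval -0.42 to 0.31; edgeR adjusted p = 0.80), an interval that spans changes in either direction. Its sign depends on scaling: with library totals in place of TMM it was 0.38 (edgeR adjusted p = 0.0566), while the median of all genes also moved, from 0.07 to 0.51. RefSeq lists 5 Fdps pseudogenes in the rat, so its count is uncertain where reads fit these copies.

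Fdft1 (ENSRNOG00000021314), squalene synthase, commits farnesyl pyrophosphate to sterols. It was at 74.8, 87.2 and 113 CPM in controls 2 to 4 and at 24.6, 19.3, 30.2 and 35.0 CPM in MIA 1 to 4. Even the highest MIA library was below the lowest control. The mean was 91.5 ± 19.3 CPM (SD, n = 3) in controls and 27.3 ± 6.81 CPM (SD, n = 4) in MIA libraries, a log2 change of -1.74 ± 0.24 (SE; 95% interval -2.28 to -1.20; edgeR adjusted p = 0.00165). Skeletal muscle markers were also lower in MIA libraries, and summed to 19142, 299, 31345 and 18889 CPM in MIA 1 to 4. MIA 2 had the lowest value of both. The highest was in MIA 3 for muscle and in MIA 4 for Fdft1. With the muscle level as a covariate the log2 change of Fdft1 was -1.31 ± 0.28 (SE; edgeR adjusted p = 0.0217). The muscle level did not overlap between the groups, so that fit cannot cleanly separate muscle from group. The part of muscle in the fall of Fdft1 was not tested. Without MIA 2 the log2 change of Fdft1 was -1.60. In the GRCr8 annotation a long non-coding RNA overlaps Fdft1, and others overlap Hmgcs1 and Insig1, with the same uncertainty in the counts as for Idi1.

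Sqle (ENSRNOG00000009550), squalene epoxidase, is the next enzyme after Fdft1 and a rate-limiting step of the sterol route. It was at 5.54, 5.28 and 4.42 CPM in controls 2 to 4 and at 16.9, 21.0, 14.9 and 15.0 CPM in MIA 1 to 4. The groups did not overlap, and MIA 2, which was lowest for Fdft1, was highest for Sqle. The mean was 5.08 ± 0.584 CPM (SD, n = 3) in controls and 17.0 ± 2.84 CPM (SD, n = 4) in MIA libraries, with a log2 change of 1.74 ± 0.22 (SE; 95% interval 1.24 to 2.23; edgeR adjusted p = 0.00139). These levels rest on 54 to 79 counts per control and 276 to 329 per MIA library.

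Lss (ENSRNOG00000054549), lanosterol synthase, was at 7.71, 9.24 and 8.84 CPM in controls 2 to 4 and at 25.9, 23.4, 12.0 and 17.0 CPM in MIA 1 to 4. MIA 3 was nearest the controls, and MIA 1 and MIA 2 were highest. The mean was 8.60 ± 0.796 CPM (SD, n = 3) in controls and 19.6 ± 6.29 CPM (SD, n = 4) in MIA libraries, with a log2 change of 1.19 ± 0.28 (SE; 95% interval 0.54 to 1.84; edgeR adjusted p = 0.0121). With the muscle level as a covariate the change of Lss was 0.83 ± 0.39 (SE) and its call was lost (edgeR adjusted p = 0.155).

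Cyp51 (ENSRNOG00000007234), lanosterol demethylase, was at 19.8, 15.0 and 17.7 CPM in controls 2 to 4 and at 60.4, 47.4, 34.3 and 35.0 CPM in MIA 1 to 4. Every MIA library was above every control, and MIA 1 and MIA 2 were again above MIA 3 and MIA 4. The mean was 17.5 ± 2.44 CPM (SD, n = 3) in controls and 44.3 ± 12.3 CPM (SD, n = 4) in MIA libraries, with a log2 change of 1.34 ± 0.24 (SE; 95% interval 0.78 to 1.89; edgeR adjusted p = 0.0042).

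Insig1 (ENSRNOG00000006859), the sterol-dependent brake on SREBP, was at 43.0, 43.2 and 41.7 CPM in controls 2 to 4 and at 41.0, 88.3, 48.7 and 43.8 CPM in MIA 1 to 4. The controls were close together, MIA 2 stood alone, and MIA 1 was the lowest library of all. The mean was 42.6 ± 0.826 CPM (SD, n = 3) in controls and 55.5 ± 22.1 CPM (SD, n = 4) in MIA libraries. The log2 change was 0.38 ± 0.27 (SE; 95% interval -0.25 to 1.01; edgeR adjusted p = 0.294), and without MIA 2 it was 0.07. With library totals it was 0.82 (edgeR adjusted p = 0.0408), and with muscle level in the fit it was -0.33 (edgeR adjusted p = 0.315), so its sign differed between these settings. Relative to the median of all genes, which moved from 0.07 to 0.51, Insig1 was at 0.31 with TMM and 0.30 with library totals. Such closeness follows from the scaling, which shifts all genes by nearly the same amount.

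Fdft1 fell, Sqle, the step after it, rose, and Fdps, the step before it, was not called, so levels of successive steps were also compared within each library. Ratios of the deposited FPKM values (counts per length and library total) within a library do not depend on the scaling between libraries. The Fdft1 to Sqle ratio was 11.7, 14.2 and 22.0 in controls 2 to 4 and 1.26, 0.795, 1.75 and 2.02 in MIA 1 to 4. Squalene synthase transcript was thus many times that of squalene epoxidase in controls, and near it in MIA libraries. The Fdft1 to Fdps ratio was 1.14, 1.24 and 1.51 in controls 2 to 4 and 0.303, 0.290, 0.522 and 0.544 in MIA 1 to 4, so the transcript ranked above that of the enzyme before it in controls and below it in MIA libraries. The Fdps to Idi1 ratio was 13.9, 13.4 and 18.8 in controls and 3.44, 3.84, 3.50 and 3.72 in MIA libraries. The Sqle to Idi1 ratio, between genes that both rose, overlapped between the groups, at 1.17 to 1.36 in controls and 0.828 to 1.40 in MIA libraries. Each ratio is a level of 1 gene against another and shows unequal change, not which of the genes changed.

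**Figure D2:**
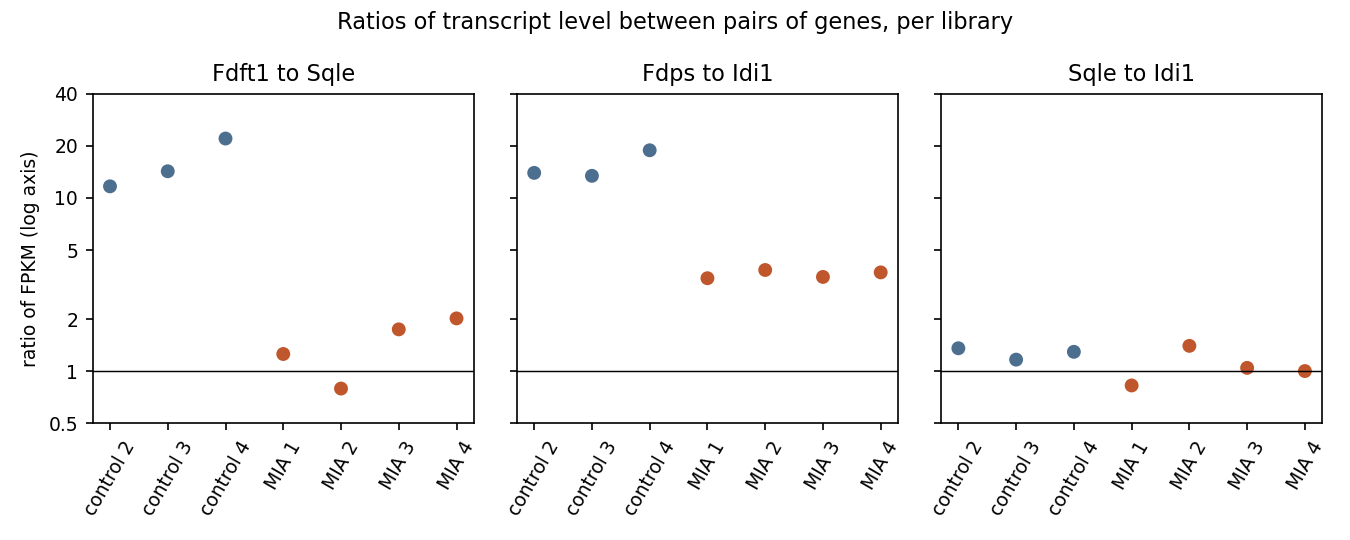
Ratio of FPKM between Fdft1 and Sqle, Fdps and Idi1, and Sqle and Idi1 in each of the 3 control and 4 MIA libraries (log axis, 1 point per library, line at a ratio of 1). The Fdft1 to Sqle ratio lies at 11.7 to 22.0 in controls and at 0.795 to 2.02 in MIA libraries, while the Sqle to Idi1 ratio overlaps.

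On the FPKM scale, which compares levels between genes per length, Fdft1 was the most abundant of the 8 in controls (24.2 ± 3.85 FPKM, SD, n = 3). It was followed by Fdps (18.6 ± 0.362 FPKM), Insig1 (14.8 ± 1.12 FPKM), Hmgcs1 (7.14 ± 0.458 FPKM) and Cyp51 (4.42 ± 0.858 FPKM). Lss, Sqle and Idi1 were lowest, at 1.60 ± 0.0721, 1.57 ± 0.267 and 1.24 ± 0.203 FPKM, and the ranges of Lss and Sqle and of Sqle and Idi1 overlapped. In MIA libraries the mean of Fdft1 was below those of Insig1, Fdps, Cyp51 and Hmgcs1, at 9.93 ± 2.88 FPKM (SD, n = 4). Insig1 (26.1 ± 10.0 FPKM) and Fdps (24.2 ± 2.08 FPKM) led there with overlapping ranges, before Cyp51 (14.9 ± 3.23 FPKM) and Hmgcs1 (13.7 ± 1.46 FPKM), whose ranges also overlapped. Sqle (7.06 FPKM, range 6.41 to 8.55), Idi1 (6.71 ± 0.82 FPKM) and Lss (4.88 ± 1.30 FPKM) remained last, with overlap between Hmgcs1 and Fdft1, Fdft1 and Sqle, and Sqle and Idi1. Cyp51 and Fdft1 overlapped too, since in MIA 4 Fdft1 (12.9 FPKM) was above Cyp51 (12.2 FPKM). FPKM are not TMM-scaled, and on that scale Fdps was higher in all MIA libraries (22.5 to 27.3 against 18.2 to 18.9 FPKM), which the TMM-scaled CPM do not show.

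The MIA rats differed in which of the genes were high. MIA 1 had the highest CPM of the MIA libraries for 5 of the 8 genes (Hmgcs1, Idi1, Fdps, Lss and Cyp51) and the lowest for Insig1. MIA 3 had the lowest CPM for 5 (Idi1, Fdps, Sqle, Lss and Cyp51). MIA 2 had the highest CPM for Sqle and Insig1 and the lowest for Hmgcs1 and Fdft1. The spread between MIA rats, as the SD of log2 CPM, was smallest for Hmgcs1 (0.18) and largest for Insig1 (0.51) and Lss (0.50). In controls, the SD of log2 CPM was between 0.028 for Insig1 and 0.30 for Fdft1. MIA 1 also had the highest sum of dividing-cell markers (286 CPM, with 87.8 to 112 CPM in the other 3), and MIA 3 had the highest muscle and the lowest fibroblast sums of the MIA group; their part in the spread was not tested.

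Around the 8 genes, 43 other genes of sterol and lipid metabolism were examined in lists, of which 42 were tested. Of these 42, 13 rose (31.0%, beside 21.3% of all genes) and 7 fell (16.7%, beside 19.6%), with a median log2 change of 0.13. Without control 3 or without control 4, 4 of them were called higher, and 3 when the muscle level entered the fit. The share of all genes called higher also dropped in these settings, to 12.2%, 11.3% and 11.01%. The muscle level in the fit ended the calls of 13 of the 20 genes called. They were Acat2, Pmvk, Nus1, Msmo1, Hsd17b7, Dhcr7, Srebf1, Mbtps2, Abcg1, Ch25h, Fasn, Acly and Me1. The muscle level did not overlap between the groups, so this fit cannot cleanly separate muscle from group. A call lost with that level in the fit need not mean a smaller change. Srebf1 was at -1.46 ± 0.48 (SE) with it and -1.39 ± 0.32 without it. Me1 was at -0.80 ± 0.25 with it and -1.63 ± 0.34 without it.

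Of the 4 early mevalonate genes, 1 rose and 1 fell (25% each, beside 21.3% and 19.6% of all genes). Acat2, which makes acetoacetyl-CoA, rose from 1.64 to 2.66 CPM in controls to 3.20 to 7.55 CPM in MIA libraries (log2 change 1.21 ± 0.40, SE; edgeR adjusted p = 0.0405). Its call was lost when any control, MIA 1 or MIA 4 was left out. Pmvk, phosphomevalonate kinase, fell from 24.4 to 29.4 CPM in controls to 14.0 to 16.6 CPM in MIA libraries (log2 change -0.84 ± 0.15; edgeR adjusted p = 0.00429). Pmvk lost its call with library totals (-0.40; edgeR adjusted p = 0.0622) and with muscle level in the fit (-0.75; edgeR adjusted p = 0.061). Mvk and Mvd, its neighbours in the route, were not called.

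Of the 9 genes after lanosterol that act with or after Cyp51, 3 rose (33.3%, beside 21.3% of all genes) and 0 fell by edgeR (at an unadjusted p under 0.05, 4 and 0; with DESeq2, 4 and 0), and 8 of 9 log2 changes were positive, with a median of 0.46. These were Dhcr7, the final reductase (1.18 ± 0.28, SE; edgeR adjusted p = 0.012), Hsd17b7, a sterol ketone reductase (1.01 ± 0.30; edgeR adjusted p = 0.0267), and Msmo1, a methylsterol oxidase (0.89 ± 0.26; edgeR adjusted p = 0.0253). All 3 lost their calls without control 3 or without control 4, Hsd17b7 also without control 2 or MIA 2, and Msmo1 also without MIA 1.

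**Figure D3:**
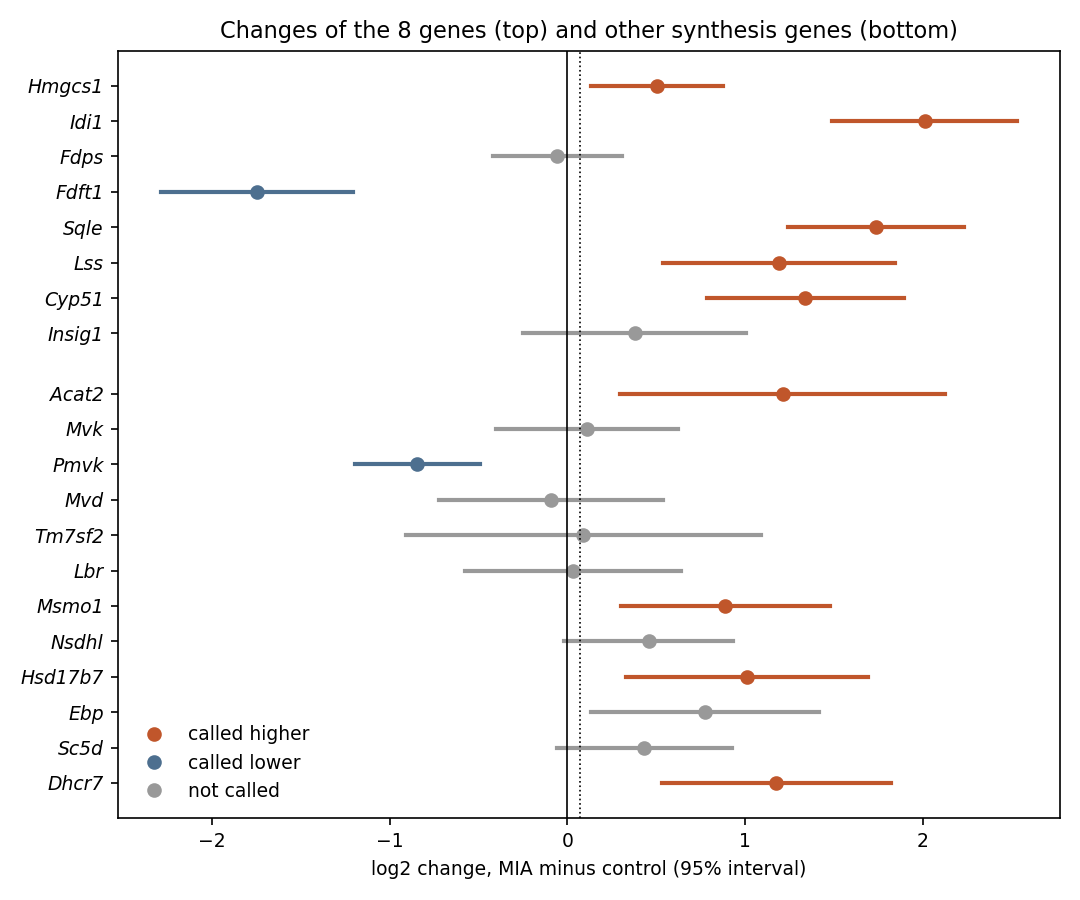
Log2 change, MIA minus control, with 95% intervals, of the 8 genes (top) and of other synthesis genes (bottom), coloured by call; the dotted line is the median of all genes (0.07). Idi1 (2.01), Sqle (1.74), Cyp51 (1.34) and Lss (1.19) lie on the higher side, Fdft1 (-1.74) and Pmvk (-0.84) on the lower side.

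Of 5 genes in the isoprenoid branches that draw on the product of Fdps, 1 rose and 1 fell (20% each, near the 21.3% and 19.6% of all genes). Pdss2, which helps to build the ubiquinone side chain, fell from 22.5 to 38.0 CPM in controls to 7.90 to 11.7 CPM in MIA libraries (log2 change -1.72 ± 0.24; edgeR adjusted p = 0.00169). Nus1, a subunit of the dolichol-making enzyme, rose (0.60 ± 0.19; edgeR adjusted p = 0.0327), and its call was lost when any control, MIA 1, MIA 2 or MIA 4 was left out. The other 3 genes of the list were not called.

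Among 8 genes of SREBP control, 1 rose (12.5%, beside 21.3% of all genes) and 2 fell (25.0%, beside 19.6%), shares not far from the background. Mbtps2, the membrane protease that makes the last cut in SREBP, rose (log2 change 0.95 ± 0.21; edgeR adjusted p = 0.00926). Srebf1, the SREBP gene most tied to fatty acid synthesis, was at 152, 89.0 and 187 CPM in controls 2 to 4 and at 36.3, 61.4, 75.5 and 44.3 CPM in MIA 1 to 4. All MIA libraries were below all controls (log2 change -1.39 ± 0.32, edgeR adjusted p = 0.0107). The call was lost with library totals (-0.93, edgeR adjusted p = 0.0528) and in both FPKM fits (-0.89 and -0.94). It was also lost with a block for the rat number (-1.21, edgeR adjusted p = 0.066) and with muscle level in the fit (-1.46, edgeR adjusted p = 0.0666). Srebf2, the SREBP gene most tied to cholesterol synthesis, and Scap, the SREBP escort, were chosen for mention after their values were seen, and neither was called (0.38 ± 0.16, edgeR adjusted p = 0.0902, and -0.32 ± 0.17, edgeR adjusted p = 0.165).

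Of 3 genes of sterol uptake and transport, 2 rose (66.7%), and of 7 genes of sterol use and efflux, 3 rose (42.9%) and 1 fell (14.3%), beside 21.3% and 19.6% of all genes. Stard4, a sterol carrier (log2 change 1.66 ± 0.34; edgeR adjusted p = 0.00658), and Tmem97, an endoplasmic reticulum protein tied to sterol handling (1.98 ± 0.43; edgeR adjusted p = 0.00853), rose. Soat1, which esterifies cholesterol for storage, was at 5.33, 4.31 and 5.40 CPM in controls 2 to 4 and at 42.5, 29.7, 37.3 and 20.3 CPM in MIA 1 to 4. That 6.45-fold rise (log2 change 2.69 ± 0.29; edgeR adjusted p = 0.00095) was larger than the rise of any of the 8 genes, without a test of the difference. Cyp27a1, the mitochondrial sterol hydroxylase, fell 4.91-fold, from 45.5 to 54.0 CPM in controls to 8.92 to 11.3 CPM in MIA libraries (-2.29 ± 0.16; edgeR adjusted p = 0.000527). Ch25h, which makes an oxysterol that blocks SREBP processing, and Abcg1, a cholesterol exporter, rose (1.55 ± 0.43, edgeR adjusted p = 0.0207, and 0.94 ± 0.29, edgeR adjusted p = 0.0301), but Ch25h lost its call without any 1 control and Abcg1 without control 3, control 4, MIA 2 or MIA 3. The macrophage markers, among whose cells Soat1, Ch25h and Abcg1 are well known, summed to 891, 1034, 763 and 415 CPM in MIA 1 to 4, and their part in these rises was not tested.

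Fatty acid synthesis, which shares acetyl-CoA and SREBP control with the sterol route, had 2 of 6 tested genes higher (33.3%, beside 21.3% of all genes) and 2 lower (33.3%, beside 19.6%). Fasn, fatty acid synthase, and Acly, which supplies cytosolic acetyl-CoA, rose (log2 changes 1.36 ± 0.38, edgeR adjusted p = 0.0212, and 0.93 ± 0.25, edgeR adjusted p = 0.019), but both lost their calls without control 3 or without control 4. Me1, which supplies NADPH, and Acss2, which makes acetyl-CoA from acetate, fell (-1.63 ± 0.34, edgeR adjusted p = 0.00712, and -1.06 ± 0.18, edgeR adjusted p = 0.00352). When the muscle level entered the fit, Fasn was at 1.51 (edgeR adjusted p = 0.0821) and Acly at 0.71 (edgeR adjusted p = 0.179), neither called. Me1 was then at -0.80 and was not called (edgeR adjusted p = 0.0599), while Acss2 kept its call. Acly also lost its call with a block for the rat number (0.81, edgeR adjusted p = 0.0825). Elovl6 had too few counts to test.

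Likeness to the enzymes was measured as the root mean square difference of a gene's log2 CPM deviations from the mean deviations of the 7 enzymes over the 7 libraries. The nearest genes outside the lists were Mlec (0.047), Mtmr12 (0.066), Glg1 (0.069), Ccne2 (0.078) and Gpn2 (0.090). Of the enzymes themselves, Hmgcs1 was nearest to the mean profile (0.145) and Fdft1 farthest (1.25), so the mean of 7 blends opposite changes. With Fdft1 left out, a choice made after its value was seen, the nearest genes were Arpin (0.068), Copa (0.071), Cep128 (0.090), Actr2 (0.090) and Mcrip1 (0.093), which share no gene with the first 5.

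Across 19 alternative settings, Idi1, Sqle and Cyp51 stayed higher and Fdft1 lower with their calls in all 19. Their log2 changes were 1.78 to 2.44, 1.41 to 2.16, 1.15 to 1.76 and -1.88 to -1.23. Lss was called in 17 of 19 and Hmgcs1 in 9 of 19. With library totals the split of all genes moved from 2998 higher and 2753 lower to 5259 higher and 1477 lower, and the 8 genes to 6 higher and 1 lower. Library totals and TMM differ only by a factor per library, which shifts all genes by nearly the same amount. Relative to the median of all genes, their log2 changes were therefore close by construction. They were 1.93 and 1.94 for Idi1, 1.65 and 1.66 for Sqle and -1.79 and -1.82 for Fdft1.

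**Figure D4:**
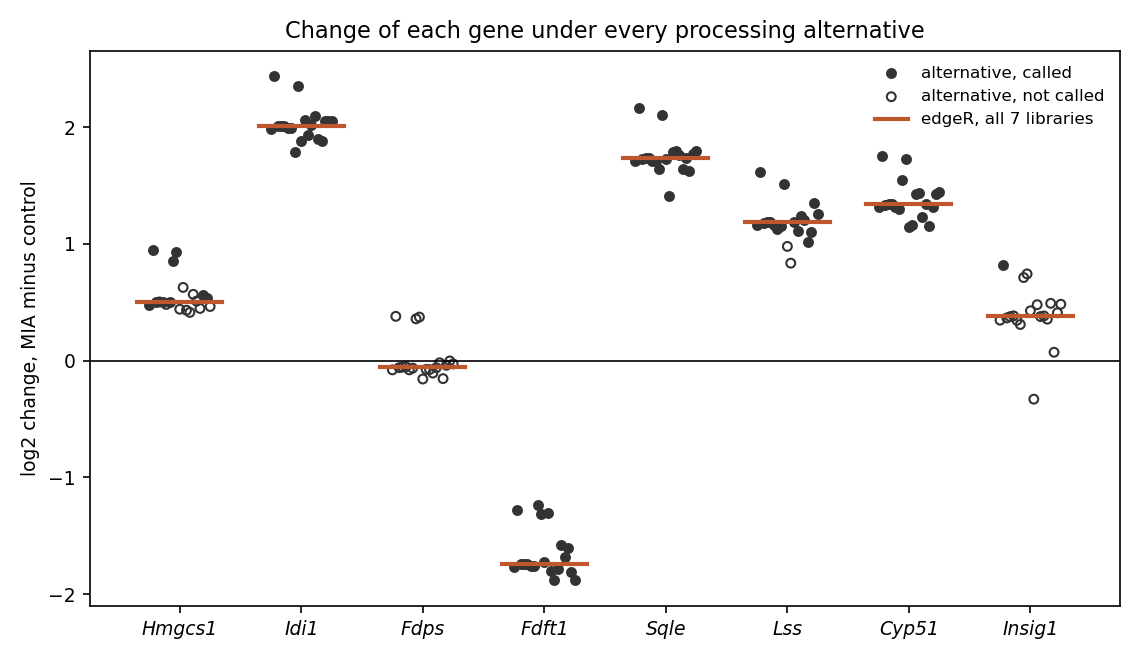
Log2 change, MIA minus control, of each of the 8 genes by edgeR on all 7 libraries (line) and under 19 alternatives (points, filled where called). Idi1, Sqle and Cyp51 stay above 0 (lowest 1.78, 1.41 and 1.15) and Fdft1 below 0 (highest -1.23), while Fdps and Insig1 fall on both sides.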

How the data were processed

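Synovial RNA of 7 rats was sequenced, 1 library per rat, from 1.5 µg of RNA with the NEBNext Ultra kit, per the labels' protocols. Rnor_6.0, HISAT2, HTSeq 0.11.2 and DESeq2 1.26.0 appear in the submitters' processing notes without a stated role. How strand was treated and which annotation was counted is not given in the sources used here. The deposited table holds whole-number counts per gene and library, per the file headers. The table also has deposited FPKM values, per the file headers, with no formula; computed back, each of the 8 genes had the same length in every library (largest relative difference 6.1e-06), so FPKM here is counts per length and library total. FPKM served for ratios, for levels between genes and for 2 alternatives.

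Counts were tested in R 4.3.3 with edgeR 4.0.16 (filterByExpr, TMM, quasi-likelihood F test, Benjamini-Hochberg adjustment over 14054 genes, threshold 0.05). SE is the size of the log2 change over the root of F, and 95% intervals use the t distribution with the degrees of freedom of the fit. TMM factors were 0.801 to 0.902 in controls and 1.06 to 1.23 in MIA libraries. The p-values set the group difference against the spread between these rats, which the fit moderates with that of all genes.

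Members and lists were chosen with earlier results of these data known. Named were the 8 genes, of each list every called gene and the 2 with the smallest p, and the 5 genes nearest the enzymes' mean profile. Alternatives were scaling by library totals, by median-of-ratios factors or after removing muscle, blood and mitochondrial genes, no filter and a stricter filter, DESeq2 1.42.0, limma-voom and limma 3.58.1 on log2(FPKM + 1) and log2(FPKM + 0.1), a replicate block, muscle or adipocyte covariates, and leaving out each library. Promoters came from RefSeq (GRCr8). Python 3.11.15, pandas 2.3.3 and matplotlib 3.10.9 made tables and figures. Some genes of the lists are counted but their own results are not reported here.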

Additional observations from a re-analysis of the deposited data

Results flagged for a closer look

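Of 28 genes whose 4 MIA libraries were checked, 4 had 1 library whose gap to the next was a larger share of the group's range than Dixon's 95% critical value for 4 samples. Chance alone flags about 1 in 20 groups. Idi1 stood at 21.0 CPM in MIA 1, a gap of 0.886 of the range, and Insig1 at 88.3 CPM in MIA 2, a gap of 0.838. Pdss2 stood at 11.7 CPM in MIA 4, a gap of 0.884, and Acly at 73.1 CPM in MIA 3, a gap of 0.877. Without MIA 1 the log2 change of Idi1 was 1.88, against 2.01 with it, and its call held.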

How the results depend on the processing

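Of the 8 genes, 5 were called higher; 3 were with a replicate block and 3 with muscle level in the fit, and 4 to 5 when 1 library was left out. The 1 gene called lower, Fdft1, was called in all 19 alternatives. Hmgcs1 lost its call with no filter (log2 change 0.50), DESeq2 (0.48), the replicate block (0.44), the muscle (0.63) and adipocyte (0.43) covariates, and ran from 0.41 to 0.57 without single libraries. Lss lost its call with the replicate block (0.98) and the muscle covariate (0.83). Fdps changed sign with library totals (0.38), log2(FPKM + 1) (0.36) and log2(FPKM + 0.1) (0.37). Insig1 was called with library totals (0.82) and changed sign with the muscle covariate (-0.33). Of the other 42 genes, 13 were called higher; 20 were with either FPKM fit, 3 with the muscle covariate and 4 to 13 without single libraries. Of the 7 lower, 4 were with the muscle covariate. The causes were not tested.

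Of 380 values for 20 named lipid genes, 320 kept their call, 60 lost it and 0 changed direction. Same-numbered rats of the groups gave correlations of deviations of 0.245, 0.0967 and 0.0425, and rats of unlike number gave -0.237 to 0.186. With so few rats these values cannot settle whether the numbers are a pairing, and the labels state none. No control has the number of MIA 1, so under the block that library adds nothing to the log2 change. Whether a call lost under the block marks a weaker effect was not tested. The common biological coefficient of variation over all tested genes was 36.7%. That value is not the spread of Hmgcs1, whose SD of log2 CPM was 0.16 in controls and 0.18 in MIA libraries. With 3 and 4 rats, its small log2 change of 0.50 was near the threshold (edgeR adjusted p = 0.0373).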
